A study of Mus musculus with 3 samples.

Results

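Medial ganglionic eminence (MGE) interneurons are the inhibitory neurons of the hippocampus that arise in the ventral telencephalon from progenitors expressing Nkx2-1 and then keep the transcription factor Lhx6. They comprise mainly the parvalbumin (Pvalb) cells, whose basket and axo-axonic axons contact the soma and axon initial segment of pyramidal cells, and the somatostatin (Sst) cells, such as those of stratum oriens that reach distal dendrites. Both release GABA, made by the glutamate decarboxylases Gad1 and Gad2. The other large group of hippocampal interneurons comes from the caudal ganglionic eminence (CGE) and includes the Vip cells, the Cck basket cells that carry the cannabinoid receptor Cnr1, and many neurogliaform cells. Doxorubicin, an anthracycline chemotherapy drug, poisons topoisomerase II, and ACY-1083 inhibits HDAC6, a cytoplasmic deacetylase of tubulin.

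Nuclei were taken from frozen mouse hippocampus and sequenced as 3' single-nucleus libraries. There were 3 libraries: mice given doxorubicin and ACY-1083, mice given doxorubicin, and untreated control mice. Each pooled both hippocampi of 4 mice, so animals cannot be told apart, and strain, genotype, sex, age, dose and time are not given in the sources used here. A nucleus was counted as an MGE interneuron by its raw UMIs (unique molecules). It needed at least 2 UMIs of Gad1 and Gad2 together, and at least 2 of Lhx6, Sst, Pvalb, Sox6 and Satb1 together, more than of the CGE genes Adarb2, Vip, Prox1, Npas1 and Htr3a. It could hold at most 1 UMI of the glial genes Mog, Mag, Aqp4 and Csf1r, and at most 1 of the granule cell genes Plk5 and C1ql3. The members were thus chosen by measured UMIs. This gave 413 MGE nuclei of 35322 barcodes: 240 of 12192 in the doxorubicin + ACY-1083 library, 101 of 12221 in the doxorubicin library and 72 of 10909 in the control library. CGE interneurons, drawn by the mirrored rule, numbered 271, 79 and 88 in the same libraries, and glutamatergic nuclei, with at least 2 UMIs of Slc17a7 and Slc17a6 and none of Gad1 or Gad2, numbered 2568, 2439 and 2472.

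MGE nuclei held a median of 7940.5 UMIs in the doxorubicin + ACY-1083 library, 2425 in the doxorubicin library and 2758 in the control library, and 2079225, 280365 and 215268 UMIs in all. The deeper library also stood apart in what it counted. Its MGE levels, over those of the doxorubicin library, followed the intron length of the gene, with median log2 CPM ratios from -1.23 in the genes with the shortest introns to 1.48 in those with the longest, when 7075 genes were split into 5 equal groups. Between the doxorubicin and control libraries, in 1682 genes split into 5 groups in the same way, the medians lay between -0.02 and 0.04. Pairs of libraries shared 29 to 46 barcodes in all, and no MGE barcode. With 1 library per treatment no test between treatments exists, and the comparisons of cell classes below were made within each library, with the 3 libraries as replicates. With the library as a block, their p-values rest on how much the class difference varied between libraries, which also differ in treatment. That variation was estimated with information shared over genes, and counting error enters as well. A p-value therefore does not give a single gene's own spread over the 3 libraries. The SE of an edgeR log2 fold was computed from the same test statistic. These p-values do not measure the spread of levels between libraries. Fewer nuclei of a type and less RNA per nucleus cannot be told apart in such sums.

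The windows before the starts of Sst and Pvalb are shown because these genes divide the MGE nuclei. Sst is the textbook target of the factor CREB, whose palindromic site TGACGTCA reads the same on both strands. The 120 bases before each RefSeq start on GRCm38.p6 are given 5′ to 3′ on the minus strand, with that site in capitals. The Sst window is chr16:23890845-23890964 and the Pvalb windows, for the 2 starts listed, are chr15:78204238-78204357 and chr15:78206401-78206520.
Sst: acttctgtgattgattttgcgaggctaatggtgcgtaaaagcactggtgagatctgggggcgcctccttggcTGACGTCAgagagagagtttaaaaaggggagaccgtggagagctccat
Pvalb, first start: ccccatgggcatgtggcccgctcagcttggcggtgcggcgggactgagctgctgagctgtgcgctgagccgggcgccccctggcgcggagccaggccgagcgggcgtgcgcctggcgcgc
Pvalb, second start: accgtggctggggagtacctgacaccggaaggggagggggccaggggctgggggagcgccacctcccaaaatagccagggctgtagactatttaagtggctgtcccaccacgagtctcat
The site began 48 bases before the Sst start and did not occur in either Pvalb window. Of 32851 windows of this length in RefSeq, 407 (1.24%) held it. A match of letters is a description of the window and says nothing on binding in these nuclei.

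The genes of the rule are given as a description, since they chose the nuclei. Lhx6, which specifies and maintains MGE fate, had 182 UMIs (87.5 CPM) in the doxorubicin + ACY-1083 library, 71 UMIs (253 CPM) in the doxorubicin library and 28 UMIs (130.1 CPM) in the control library. It was seen in 45.4%, 46.5% and 29.2% of MGE nuclei of these libraries, so most members in each library were admitted without it. Sst was seen in 49.2%, 52.5% and 38.9% of MGE nuclei and Pvalb, the fast calcium buffer, in 16.7%, 11.9% and 20.8%. Sox6, which acts downstream of Lhx6, was seen in 70.0%, 27.7% and 19.4%, with 429, 128 and 74.3 CPM in MGE nuclei of the doxorubicin + ACY-1083, doxorubicin and control libraries, against 10.9, 2.35 and 2.69 CPM in glutamatergic nuclei. Satb1, a chromatin organiser needed for Sst cells, was seen in 66.7%, 53.5% and 69.4%. Nkx2-1 had 0 UMIs in the MGE nuclei, which allows up to 1.44, 10.7 and 13.9 CPM in the doxorubicin + ACY-1083, doxorubicin and control libraries. The share of glutamatergic nuclei with a UMI was taken as a background level, in which stray RNA and expression by those nuclei cannot be told apart. It was high for Sst, at 17.4%, 15.7% and 12.9%, and for Satb1, at 26.4%, 12.1% and 12.1%, and 0.312%, 0.369% and 0.283% for Lhx6. Slc17a7, a glutamatergic gene, was in turn seen in 15.4%, 19.8% and 22.2% of MGE nuclei. The list of 7 markers of striatal projection neurons summed to 1185, 599 and 502 CPM in MGE nuclei of the doxorubicin + ACY-1083, doxorubicin and control libraries, against 807, 360.0 and 369 CPM in glutamatergic nuclei. Pde10a, a phosphodiesterase, gave 2399 of 2464, 162 of 168 and 104 of 108 of these UMIs in MGE nuclei, and Adora2a was at 0 UMIs in each library; the part of striatal cells was not tested.

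**Figure D1:**
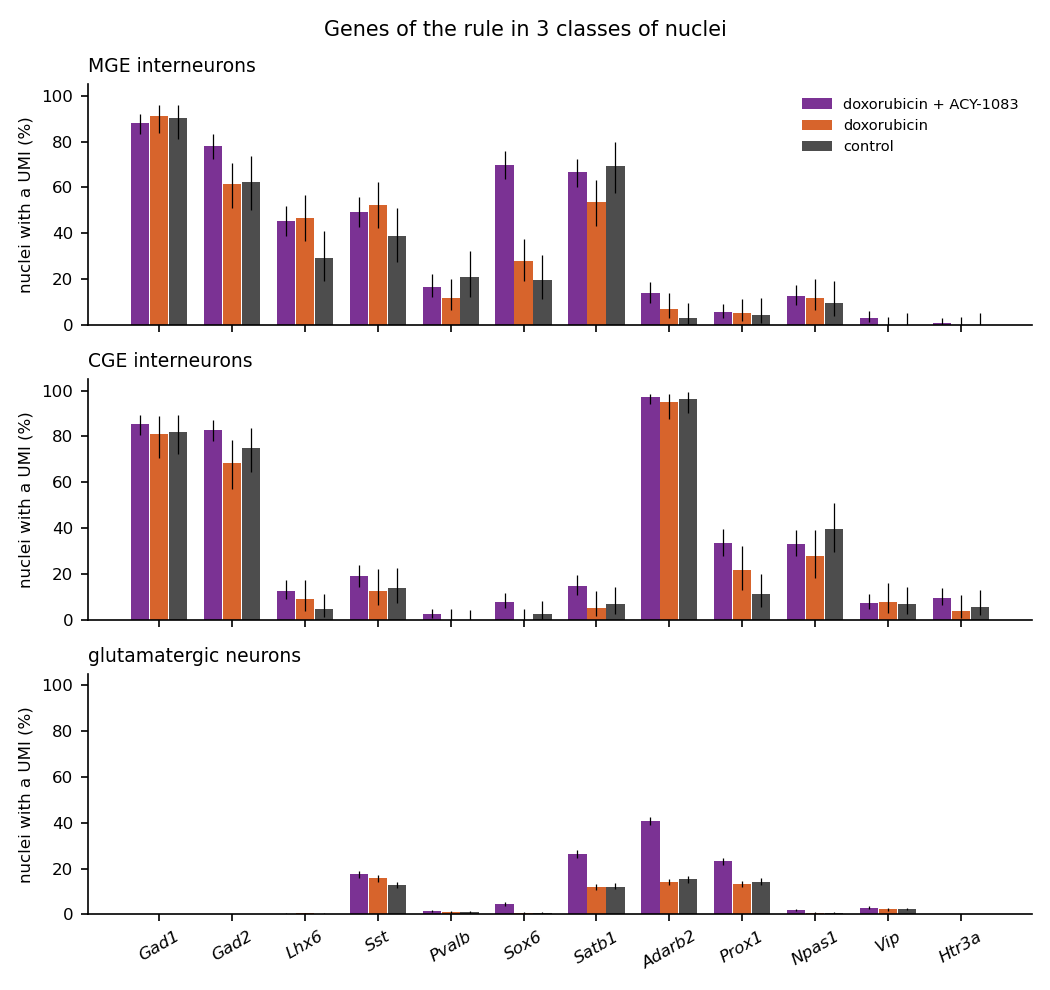
Share of nuclei with at least 1 UMI of each gene of the rule (%, y axis) in MGE, CGE and glutamatergic nuclei, for the doxorubicin + ACY-1083 (purple), doxorubicin (orange) and control (grey) libraries; lines are exact 95% binomial intervals. Lhx6 is near 0 in glutamatergic nuclei, whereas Sst and Satb1 are seen in 12.1% to 26.4% of them.

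A gene that the rule did not use was seen in members that entered by different routes. Nxph1, a secreted ligand of neurexins typical of interneurons, was seen in 99.1%, 36.2% and 47.6% of the MGE nuclei with Lhx6 in the doxorubicin + ACY-1083, doxorubicin and control libraries. It was seen in 87.5%, 55.6% and 41.7% of the 8, 9 and 12 nuclei that entered on Satb1 alone, and in 8.2%, 1.4% and 1.5% of glutamatergic nuclei. Nxph1 was also seen in 55.7%, 22.8% and 26.1% of CGE nuclei, more than the glutamatergic share and less than the MGE nuclei with Lhx6. The nuclei without Lhx6 but with Sst or Pvalb numbered 84, 35 and 32. Of these, 92.9%, 25.7% and 43.8% held Nxph1, near the CGE share in the doxorubicin library. Slc17a7 was seen in 13.1%, 17.1% and 25.0% of them, against 21.8%, 17.7% and 11.4% of CGE nuclei. With Sox6 but without Lhx6, Sst or Pvalb, 37 of 39, 3 of 10 and 3 of 7 nuclei held Nxph1. Among the nuclei that entered on Satb1 alone, Slc17a7 was seen in 25.0%, 33.3% and 33.3%, and Slc32a1, the vesicular GABA transporter, in 0 of 8, 2 of 9 and 0 of 12, against 1.99%, 1.80% and 1.90% of glutamatergic nuclei. These sets are small. Many members lay at the edge of the rule. In the doxorubicin + ACY-1083 library 33 of 240 had exactly 2 UMIs of the MGE genes, against 43 of 101 in the doxorubicin library and 44 of 72 in the control library. Just outside, 53, 73 and 46 nuclei had the GABA genes with 1 UMI of the MGE genes and none of the CGE genes. Just outside the first condition, 158, 103 and 80 nuclei met the others with 1 UMI of Gad1 and Gad2.

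The share of barcodes that were MGE interneurons was 1.97% in the doxorubicin + ACY-1083 library (exact 95% interval 1.73 to 2.23), 0.826% in the doxorubicin library (0.674 to 1.003) and 0.660% in the control library (0.517 to 0.830). These intervals cover counting error only. Depth had the same leading library. When barcodes were thinned to 1000 UMIs, leaving out 1088, 3352 and 2951 shallower ones, 5 of 11104, 16 of 8869 and 3 of 7958 were MGE nuclei, or 0.0450%, 0.180% and 0.0377%. Glutamatergic nuclei also became fewer, at 1.85%, 10.5% and 12.3% of thinned barcodes, against 21.1%, 19.96% and 22.7% before thinning, so the thinned MGE shares give no order of the libraries. Among interneurons that could be placed, MGE nuclei made up 47.0% of MGE plus CGE nuclei in the doxorubicin + ACY-1083 library, 56.1% in the doxorubicin library and 45.0% in the control library. The exact intervals of the 3 libraries overlapped. At a minimum of 3 UMIs in the rule they did not all overlap, with 45.8% (40.4 to 51.3) in the doxorubicin + ACY-1083 library, 55.9% (42.4 to 68.8) in the doxorubicin library and 25.9% (15.0 to 39.7) in the control library. Of all GABAergic nuclei, those that met neither rule included, MGE nuclei made up 35.0% (31.5 to 38.7), 23.7% (19.7 to 28.0) and 20.3% (16.3 to 24.9) in the same libraries. Nuclei that met neither rule numbered 174, 246 and 194. After thinning the MGE share of GABAergic nuclei was 4.90% (1.61 to 11.1), 9.25% (5.38 to 14.6) and 2.14% (0.444 to 6.13). The part of depth in this share was not tested.

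MGE interneurons against CGE interneurons showed which genes, beside those of the rule, divided the classes. Of 5983 genes tested, 444 were higher in MGE interneurons (7.42%) and 426 lower (7.12%) at an edgeR quasi-likelihood adjusted p under 0.05, 14.5% in all. DESeq2 called 184 (3.08%), all of them among the edgeR calls. Without the doxorubicin + ACY-1083 library 303 of 4384 genes tested were called. The classes were drawn from the UMIs of 18 genes in the same nuclei; those genes were left out, and no other gene was used to choose them.

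Crhbp, a binding protein of corticotropin-releasing hormone made by Sst interneurons, showed the largest difference among the genes named. It had 51.0, 103 and 97.6 CPM in MGE interneurons of the doxorubicin + ACY-1083, doxorubicin and control libraries, against 1.03, 0 and 4.88 CPM in CGE interneurons. Its log2 fold was 5.38 ± 0.445 (SE, n = 3 libraries, edgeR adjusted p = 4.00e-16), and the classes did not overlap in level. Tmem44, a membrane protein, had 139 to 172 CPM in MGE interneurons over the 3 libraries, against 9.75 to 17.2 CPM in CGE interneurons. It was also higher in each library, as the naming required, at a log2 fold of 3.48 ± 0.232 (SE, n = 3 libraries, edgeR adjusted p = 4.07e-20). Kcnab3, an auxiliary subunit of Kv1 potassium channels, had 21.2 to 85.6 CPM against 2.07 to 5.72 CPM (log2 fold 3.51 ± 0.467). Syt2, the fast calcium sensor of release at Pvalb terminals, had 32.1 to 62.5 CPM in MGE against 5.72 to 19.5 CPM in CGE interneurons (log2 fold 3.01 ± 0.326).

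The other genes named as higher were the pleckstrin-homology-like gene Phlda1, the NIMA-related kinase Nek7, the aryl hydrocarbon receptor Ahr, the ALK ligand Alkal2, the axon guidance ligand Slit2, the dystrophin relative Utrn, the glypican Gpc6, the synaptic adhesion gene Il1rapl2, the latrophilin Adgrl2 and the proteoglycan Bcan. Their log2 folds ran between 2.08 for Bcan and 3.61 for Phlda1. A higher level in MGE interneurons in 3 of 3 libraries was a condition for naming them. Utrn, for one, had 403, 182 and 279 CPM in MGE interneurons of the doxorubicin + ACY-1083, doxorubicin and control libraries, against 73.8, 45.8 and 58.5 CPM in CGE interneurons. For this gene the lowest MGE level lay above the highest CGE level.

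Genes lower in MGE interneurons were led by Syt6, a synaptotagmin, and Rgs12, a regulator of G-protein signalling. Cnr1, the presynaptic cannabinoid receptor of Cck basket cells, had 32.7, 28.5 and 41.8 CPM in MGE interneurons of the doxorubicin + ACY-1083, doxorubicin and control libraries, against 288, 584 and 756 CPM in CGE interneurons. Its log2 fold was -3.46 ± 0.168 (SE, n = 3 libraries, edgeR adjusted p = 3.85e-27). Ntng1, a netrin-family adhesion protein, had 53.9 to 144 CPM in MGE against 887 to 1259 CPM in CGE interneurons (log2 fold -3.61 ± 0.156). Ndnf, a marker of neurogliaform cells, had 23, 0 and 0 UMIs in MGE interneurons of the doxorubicin + ACY-1083, doxorubicin and control libraries, against 148, 26 and 20 UMIs in CGE interneurons. Kit, Cadps2, Egfr and Pde3a were also lower, in 3 of 3 libraries as the naming required. Their log2 folds lay between -3.34 for Kit and -2.65 for Pde3a. Without the doxorubicin + ACY-1083 library Syt2, Syt6 and Egfr did not pass the filter on low counts. The plot of MGE over CGE levels by library shows these genes, which were named only if the classes kept their order in each library.

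**Figure D2:**
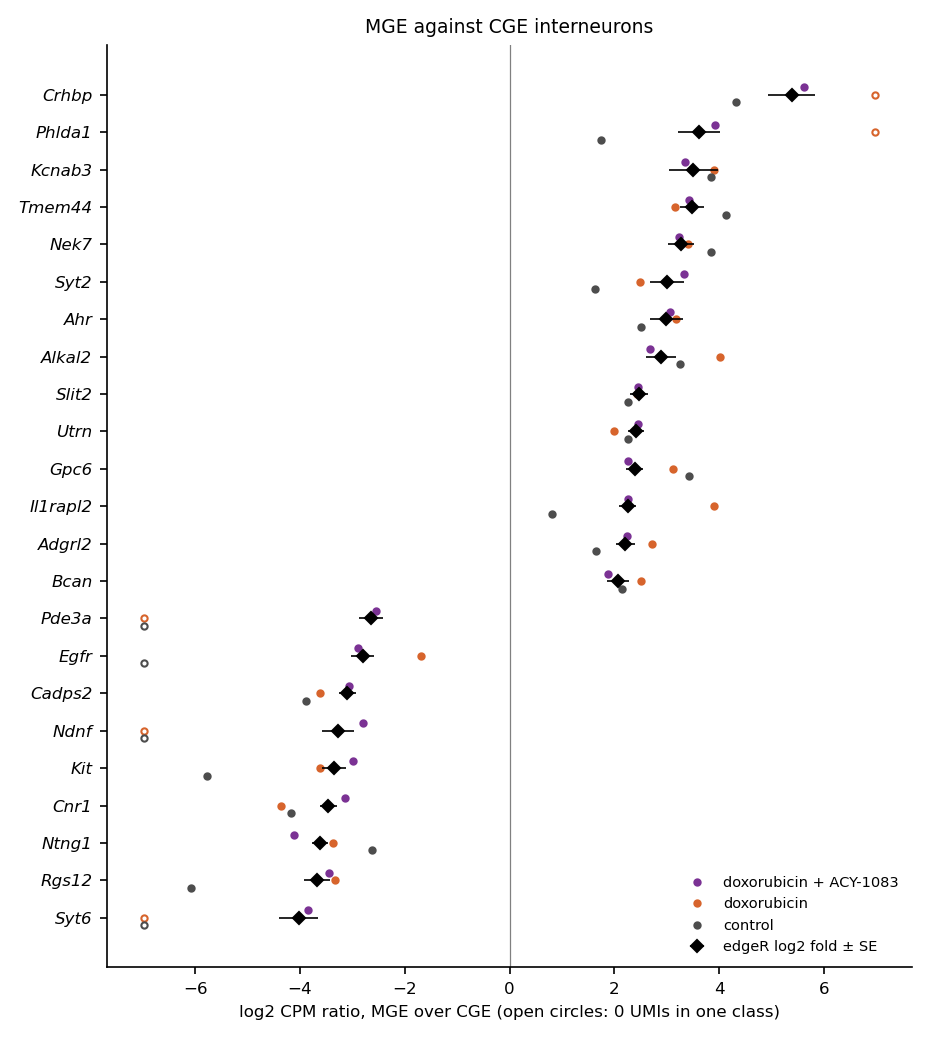
Genes named for MGE against CGE interneurons (rows), with the log2 CPM ratio in each library (circles, coloured by library; open circles at the edge mark 0 UMIs in one class) and the edgeR log2 fold with its SE (diamonds, n = 3 libraries). Circles lie right of 0 for the genes named as higher, Crhbp at the top, and left of 0 for those named as lower, Syt6 at the bottom. The same direction in each library was a condition for naming a gene.

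Genes of fast-spiking Pvalb cells were higher in MGE interneurons for 11 of 15 tested, and none was lower, where 7.42% of all genes were higher. DESeq2 called 8 of the 15, against 1.44% of all genes. The list's median log2 fold was 0.93, beside -0.01 over all genes. Tac1, the tachykinin precursor found in Pvalb and Sst cells, had 21.2 to 60.6 CPM in MGE against 0 to 9.75 CPM in CGE interneurons (log2 fold 2.56 ± 0.434). Ppargc1a, the co-activator of mitochondrial genes that Pvalb cells hold at a high level, had 191, 164 and 149 CPM in MGE interneurons of the doxorubicin + ACY-1083, doxorubicin and control libraries, against 68.7, 5.72 and 48.8 CPM in CGE interneurons. This gave a log2 fold of 1.66 ± 0.179 (SE, n = 3 libraries, edgeR adjusted p = 1.09e-11). The Kv3 channel genes, which allow brief spikes, were both higher. Kcnc2 had 181 to 2506 CPM in MGE against 62.9 to 862 CPM in CGE interneurons (edgeR adjusted p = 2.30e-14), and Kcnc1 had a log2 fold of 0.67 ± 0.124. Kcnc1 had 209.7, 599 and 585 CPM in MGE interneurons of the doxorubicin + ACY-1083, doxorubicin and control libraries, against 143, 372 and 346 CPM in CGE interneurons. Its level was higher in MGE interneurons in each library, and its classes overlapped when libraries were mixed. Erbb4, the neuregulin receptor of interneurons, did not pass the test (log2 fold -0.11 ± 0.108, edgeR adjusted p = 0.613).

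Of 9 genes of Sst cell subtypes tested, 4 were higher, Crhbp, Grin3a and Npy among them, and Kit and Reln were lower. DESeq2 called 1 higher and 2 lower. Over all 5983 genes, 7.42% were higher and 7.12% lower by edgeR, and DESeq2 called 86 higher and 98 lower. Reln, the large glycoprotein of Cajal-Retzius cells that Sst and neurogliaform interneurons also make, had 292, 78.5 and 107 CPM in MGE interneurons of the doxorubicin + ACY-1083, doxorubicin and control libraries, against 645, 292 and 375 CPM in CGE interneurons (log2 fold -1.30 ± 0.139). Other CGE genes, kept out of the rule, went the opposite way to MGE markers: 6 of 7 tested were lower and none higher, and these were Cnr1, Ndnf, Lamp5, Cxcl14, Id2 and Cck, of which DESeq2 called 3. Lamp5, a membrane protein of neurogliaform cells, had 7.70 to 42.8 CPM in MGE against 62.0 to 223 CPM in CGE interneurons (log2 fold -2.55 ± 0.256). Of 8 ivy and neurogliaform genes 6 were lower, 5 of them by DESeq2 as well, and Npy was higher by edgeR alone. Npy, the peptide of ivy and some Sst cells, had 41.8 to 88.3 CPM in MGE against 23.2 to 48.8 CPM in CGE interneurons (log2 fold 0.83 ± 0.248).

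Ionotropic and metabotropic glutamate receptors split by subunit. Of 20 tested, 8 were higher and 3 lower, where 7.42% and 7.12% of all genes were, and DESeq2 called 5 higher and 1 lower. Gria3, an AMPA receptor subunit, had 1201, 1288 and 1473 CPM in MGE interneurons of the doxorubicin + ACY-1083, doxorubicin and control libraries, against 378, 607 and 302 CPM in CGE interneurons. Its log2 fold was 1.68 ± 0.120 (SE, n = 3 libraries, edgeR adjusted p = 7.55e-19). Gria1 and Gria4, AMPA subunits as well, were higher by 0.98 ± 0.0999 and 0.80 ± 0.110, and the kainate receptor subunit Grik3 by 1.43 ± 0.191. Grin3a, an NMDA subunit that lowers calcium entry, was higher by 0.97 ± 0.151. The delta receptor Grid1, the NMDA subunit Grin2a and the kainate subunit Grik2 were lower, at log2 folds of -0.74, -0.65 and -0.52. Grin2a had 449 to 1108 CPM in MGE against 717 to 1862 CPM in CGE interneurons, lower in 3 of 3 libraries.

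Among 24 potassium and sodium channel genes 6 were higher and 8 lower, beside 7.42% and 7.12% of all genes; DESeq2 called 3 higher and 1 lower. Kcna1, a Kv1 channel of axons, was higher by 0.97 ± 0.167, and Kcna2, its partner, by 0.81 ± 0.225. Kcnn2, a calcium-activated SK channel, had 132 to 166 CPM in MGE against 546 to 629 CPM in CGE interneurons (log2 fold -1.92 ± 0.131). Of 13 calcium channel and buffer genes, Cacna2d2 and Cacna1a were higher and 3 were lower, and DESeq2 called 2 higher and 1 lower. Cacna1a encodes the pore of P/Q-type channels, which trigger release from Pvalb terminals, and had a log2 fold of 0.92 ± 0.121. Cacna2d2, an auxiliary subunit, had 193 to 334 CPM in MGE against 46.5 to 126 CPM in CGE interneurons (log2 fold 1.86 ± 0.159). Its relative Cacna2d1 was lower by contrast, at -1.91 ± 0.147, the opposite direction.

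For the lists that follow, 7.42% of all genes were higher and 7.12% lower by edgeR. Of 6 genes of perineuronal nets, the matrix around Pvalb cells, Bcan and Tnr were higher and Hapln1, Vcan and Ptprz1 lower; the link protein Hapln1 had a log2 fold of -2.15 ± 0.235. GABA receptor genes gave 2 lower of 12, Gabra2 among them, and none by DESeq2. Neuromodulator receptors gave 4 lower of 7, of which DESeq2 called 2, among the 4 the serotonin receptor Htr2c (log2 fold -2.14 ± 0.196). Synapse organisers gave 3 higher and 6 lower of 20 (2 and 1 by DESeq2), with Cntnap4, a neurexin relative, at 1.09 ± 0.145. Of 14 listed lineage genes 8 were tested, with Nxph1 and Maf higher and Dlx6os1 and Dlx1 lower, of which DESeq2 called 1 as lower. Of 13 genes of mitochondrial growth and dynamics 4 were higher (1 by DESeq2), and of 55 nuclear genes of oxidative phosphorylation 1 was, Uqcrc1 (0 by DESeq2). No gene of 15 for tubulin and microtubules, of 11 for topoisomerases and DNA repair, or of 5 p53 targets passed the test by edgeR or DESeq2. Of 11 deacetylase genes Hdac4 was higher (log2 fold 1.10 ± 0.172) and Hdac9 and Hdac7 lower, and DESeq2 called 1 in each direction. Hdac6, the target of ACY-1083, had a log2 fold of -0.41 ± 0.183 (edgeR adjusted p = 0.142).

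Against glutamatergic neurons, MGE interneurons differed in 29.4% of 15219 genes by edgeR, 1774 higher (11.7%) and 2694 lower (17.7%), and DESeq2 called 1809 (11.9%). Of 13 interneuron lineage genes 12 were higher, by DESeq2 as well. Genes named as higher were Erbb4, Dlx6os1, Maf, Btbd11 and Nxph1. Maf, a transcription factor of Sst and Pvalb cells, had 443, 378 and 432 CPM in MGE interneurons of the doxorubicin + ACY-1083, doxorubicin and control libraries, against 4.87, 7.22 and 6.49 CPM in glutamatergic nuclei (log2 fold 6.08 ± 0.139). Slc32a1, which loads GABA into vesicles, was higher by 2.22 ± 0.326. The kainate subunit Grik1 had 269 to 1257 CPM in MGE against 8.94 to 30.1 CPM in glutamatergic nuclei. Gria2, the AMPA subunit that makes the channel impermeable to calcium, was lower, with 1628, 4384 and 4120.4 CPM in MGE interneurons of the doxorubicin + ACY-1083, doxorubicin and control libraries, against 3039.8, 7359 and 7358 CPM in glutamatergic nuclei. Its log2 fold was -0.96 ± 0.0771 (SE, n = 3 libraries, edgeR adjusted p = 1.86e-33). Robo3, Itga8, Hs3st4 and Tafa1 were named as lower, at log2 folds between -3.94 for Robo3 and -3.65 for Tafa1. Hs3st4 did not pass without the doxorubicin + ACY-1083 library (edgeR adjusted p = 0.0917) or in DESeq2 (adjusted p = 0.0813). Of 16 immediate early genes 9 were lower in MGE interneurons, beside 17.7% of all genes, and none higher. DESeq2 called 4 of them lower. Nr4a2, an activity-regulated nuclear receptor, was lowest with a log2 fold of -3.13 ± 0.289. Hdac6 was higher in MGE interneurons, with 43.3, 78.5 and 139 CPM in MGE interneurons of the doxorubicin + ACY-1083, doxorubicin and control libraries, against 25.9, 54.9 and 62.4 CPM in glutamatergic nuclei (log2 fold 0.66 ± 0.161). Of 14 genes of the deacetylase list 7 were higher by edgeR, Hdac6 among them, and 3 lower, beside 11.7% and 17.7% of all genes. DESeq2 called 2 of the list higher and 0 lower.

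Within the MGE nuclei, Sst nuclei (at least 2 Sst UMIs and more Sst than Pvalb) numbered 61 in the doxorubicin + ACY-1083 library, 29 in the doxorubicin library and 16 in the control library. Pvalb nuclei (at least 1 Pvalb UMI and more Pvalb than Sst) numbered 35, 9 and 12. The remaining 144, 63 and 44 nuclei stayed unassigned. Neither peptide nor buffer was seen in 90, 39 and 32 MGE nuclei, and both were seen in 8, 3 and 3. Sst nuclei were 25.4%, 28.7% and 22.2% of MGE nuclei, with exact intervals that overlapped in every pair of libraries. Sst was also seen in 12.9% to 17.4% of glutamatergic nuclei, and the part of such background in the Sst set was not tested.

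Sst against Pvalb nuclei gave 180 of 1209 genes (14.9%) by edgeR, 104 higher (8.60%) and 76 lower (6.29%); DESeq2 called 34 (2.81%), all among them. Without the doxorubicin + ACY-1083 library 33 of 556 genes tested were called. The calls were 343 of 4483 without the doxorubicin library and 278 of 4699 without the control library. Reln had 615, 93.0 and 250.3 CPM in Sst nuclei of the doxorubicin + ACY-1083, doxorubicin and control libraries, against 2.71, 0 and 24.2 CPM in Pvalb nuclei. This rested on 356, 6 and 12 UMIs in Sst nuclei, against 1, 0 and 1 in Pvalb nuclei, and gave a log2 fold of 6.67 ± 0.600 (SE, n = 3 libraries, edgeR adjusted p = 2.21e-25). Reln was thereby higher in Sst nuclei and, above, lower in MGE than in CGE interneurons. Grin3a had 490.4, 186 and 355 CPM in Sst nuclei of the doxorubicin + ACY-1083, doxorubicin and control libraries, against 84.1, 26.5 and 48.5 CPM in Pvalb nuclei (log2 fold 2.59 ± 0.366). Cacna2d3, a calcium channel subunit, had 438 to 1625 CPM against 72.7 to 296 CPM (log2 fold 2.41 ± 0.238), and Cacna1e, the R-type channel, was higher by 2.54 ± 0.340. Ralyl, Lrtm1, Synpr, Mgat4c, Trhde and Nkain3 completed the genes named as higher, between 2.03 for Nkain3 and 2.55 for Ralyl. Synpr, Mgat4c and Nkain3 had 5 and 3, 2 and 2, and 2 and 2 UMIs in Sst nuclei of the doxorubicin and control libraries, against none in Pvalb nuclei there. Without the doxorubicin + ACY-1083 library they did not pass the filter on low counts, and neither did Reln, Grin3a, Ralyl, Cacna1e and Trhde. Of the genes named as higher, only Cacna2d3 and Lrtm1 could be tested without it, and both passed. Nkain3 did not pass in DESeq2 (adjusted p = 0.116).

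Btbd11, an ankyrin-repeat protein of interneuron synapses, was lower in Sst nuclei, with 117, 31.0 and 41.7 CPM in Sst nuclei of the doxorubicin + ACY-1083, doxorubicin and control libraries, against 681, 265 and 267 CPM in Pvalb nuclei. Its log2 fold, Sst over Pvalb, was -2.58 ± 0.316 (SE, n = 3 libraries, edgeR adjusted p = 6.72e-14). Tmem108 followed at -2.53 ± 0.284, with 91.5 to 125 CPM in Sst nuclei against 509 to 820.1 CPM in Pvalb nuclei. Cemip, a hyaluronan-binding protein, had a log2 fold of -2.65 ± 0.344. Itpr1, the calcium release channel, had 121, 109 and 62.6 CPM in Sst nuclei of the doxorubicin + ACY-1083, doxorubicin and control libraries, against 792, 265 and 97.0 CPM in Pvalb nuclei, and missed DESeq2's threshold (adjusted p = 0.116). Trps1, Plch2, Epb41, Cdh18, Bcan and Erbb4 were also lower in Sst nuclei, at log2 folds between -2.38 for Trps1 and -1.82 for Erbb4. Bcan did not pass without the doxorubicin + ACY-1083 library (edgeR adjusted p = 0.0861). Cemip, Itpr1, Trps1 and Cdh18 did not pass the filter on low counts without that library. Of 7 fast-spiking genes tested, 5 were lower in Sst nuclei (3 by DESeq2) and none higher, where 6.29% of all genes were lower. These were Btbd11, Erbb4, Kcnc1, Ppargc1a and Ank1. Kcnc1 had 98.4, 326 and 313 CPM in Sst nuclei of the doxorubicin + ACY-1083, doxorubicin and control libraries, against 309, 899 and 848 CPM in Pvalb nuclei (log2 fold -1.54 ± 0.258), while Kcnc2, the other Kv3 gene, had a log2 fold of -0.15 ± 0.186 (edgeR adjusted p = 0.715).

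**Figure D3:**
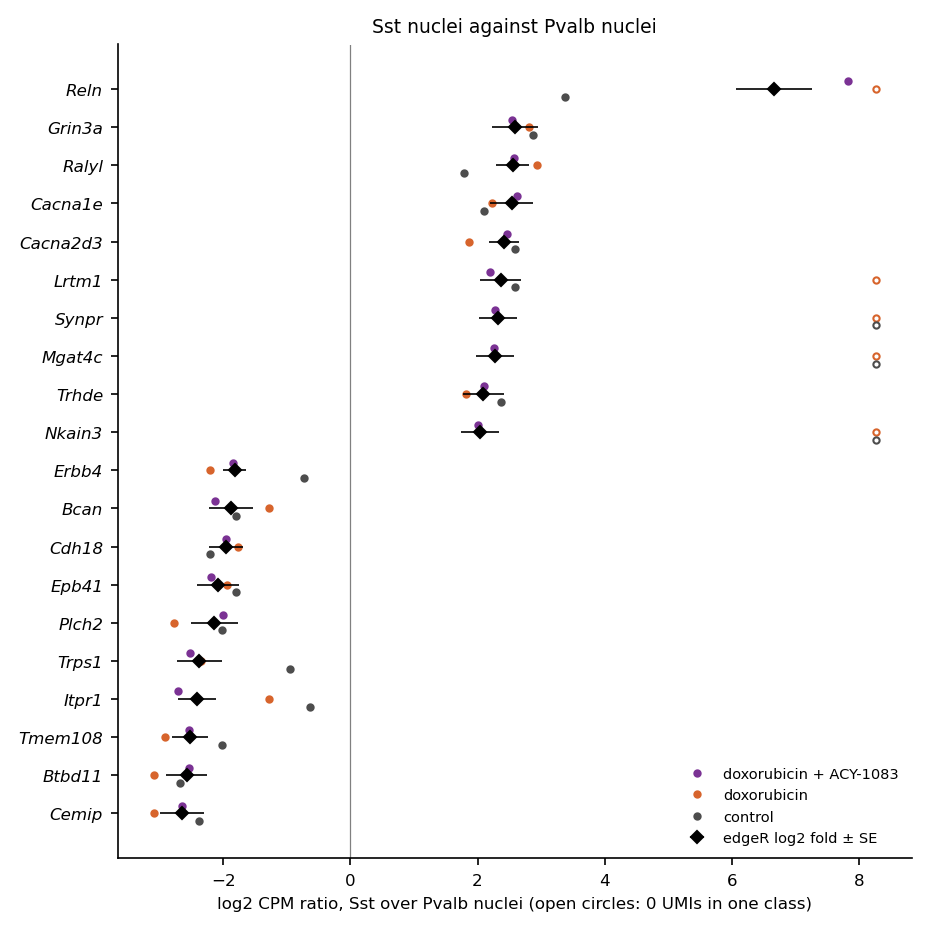
Genes named for Sst against Pvalb nuclei among the MGE interneurons (rows), with the log2 CPM ratio in each library (circles, coloured by library; open circles at the edge mark 0 UMIs in one class) and the edgeR log2 fold with its SE (diamonds, n = 3 libraries). Reln lies farthest right and Cemip farthest left.

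Glutamate receptors again split by subunit. Of 15 tested, 6 were higher in Sst nuclei, Grin3a, Grik1, Grin2a, Grm7 and Gria1 among them, and 1 was lower, where 8.60% and 6.29% of all genes were. DESeq2 called 3 higher and 0 lower. Grik1 had 1791, 496 and 355 CPM in Sst nuclei of the doxorubicin + ACY-1083, doxorubicin and control libraries, against 478, 79.4 and 145 CPM in Pvalb nuclei. Its log2 fold was 1.91 ± 0.222 (SE, n = 3 libraries, edgeR adjusted p = 2.01e-15), higher in 3 of 3 libraries. Of 13 potassium and sodium channels 2 were higher and 2 lower (0 and 2 by DESeq2), with Kcna1 at -1.60 ± 0.318. Of 10 calcium channel and buffer genes 3 were higher, 2 of them by DESeq2, and Cacna2d2 was lower by edgeR alone (-1.11 ± 0.307). Cntnap4 was lower among the synapse organisers, of which 4 of 13 were higher and 3 lower (1 and 1 by DESeq2). Gabrg3, a GABA receptor subunit, was lower at -1.47 ± 0.212. None of 9 tubulin and microtubule genes passed by edgeR or DESeq2.

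Doxorubicin against control was described in MGE interneurons by CPM ratios, with intervals that cover counting error only. Of 721 genes with at least 50 UMIs in the higher library, 51 lay past a ratio of 1.5 (7.07%), 36 higher (4.99%) and 15 lower (2.08%). At a minimum of 100 UMIs 7 of 211 did. The genes named below were chosen by their intervals in MGE interneurons, so an MGE interval away from 1 follows from the choice. Their ratios in the other classes played no part in it. Ttr, the transthyretin of choroid plexus, had 1965 CPM (551 UMIs) in the doxorubicin library, against 766 CPM (165 UMIs) in the control library. Its ratio was 2.56 (95% counting interval 2.15 to 3.07), and it was 2.25 in CGE interneurons and 2.22 in glutamatergic neurons. The choroid plexus and vessel list as a whole, of 5 markers, had 1987 CPM in the doxorubicin library, against 785 CPM in the control library, of which Ttr gave 551 of 557 UMIs in the doxorubicin library and 165 of 169 in the control library, with Kl at 0 in the doxorubicin library and Cldn5 and Flt1 at 0 in the control library. The part of stray choroid RNA in this ratio was not tested.

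Nrgn, neurogranin of dendrites, had 196 CPM (55 UMIs) in the doxorubicin library, against 65.0 CPM (14 UMIs) in the control library, a ratio of 2.94 (95% counting interval 1.65 to 5.87). The ratio was 2.28 in CGE interneurons and 1.05 in glutamatergic neurons. Nfib, a nuclear factor, had 235 CPM (66 UMIs) in the doxorubicin library, against 92.9 CPM (20 UMIs) in the control library, a ratio of 2.49 (95% counting interval 1.52 to 4.41) beside 1.09 in CGE interneurons and 0.983 in glutamatergic neurons. Hnrnph3, a splicing regulator, had a ratio of 2.34 (95% counting interval 1.38 to 4.32), beside 0.909 in CGE interneurons and 0.862 in glutamatergic neurons. Auts2, a regulator of transcription tied to brain development, had 788 CPM (221 UMIs) in the doxorubicin library, against 474 CPM (102 UMIs) in the control library, a ratio of 1.66 (95% counting interval 1.31 to 2.12). It stood at 0.991 in CGE interneurons and 0.987 in glutamatergic neurons. Atp5h, a subunit of ATP synthase, and Ptgds, the prostaglandin D synthase of glia and meninges, had ratios of 2.10 and 1.84. Astrocyte markers, 5 with a UMI of 5 in each library, had 399 CPM in the doxorubicin library, against 242 CPM in the control library. Oligodendrocyte markers had 328 CPM in the doxorubicin library (6 of 6 with a UMI), against 218 CPM in the control library (4 of 6, Mog and St18 at 0). Their part in these ratios was not tested. Lhx6, a gene of the rule, had 253 CPM (71 UMIs) in the doxorubicin library, against 130.1 CPM (28 UMIs) in the control library, which is a description of how the nuclei were chosen.

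Dlx6os1, a long noncoding RNA of the Dlx locus in interneurons, was lowest, with 157 CPM (44 UMIs) in the doxorubicin library, against 316 CPM (68 UMIs) in the control library. Its ratio was 0.499 (95% counting interval 0.332 to 0.737), beside 0.861 in CGE interneurons and 1.20 in glutamatergic neurons. Arpp21, a cAMP-regulated phosphoprotein, had 125 CPM (35 UMIs) in the doxorubicin library, against 251 CPM (54 UMIs) in the control library, with a 95% counting interval of the ratio of 0.316 to 0.776. Rbm28, Klhl24, Magi2, Cit, Igsf9b and Ptprd were the others named, with ratios between 0.604 for Igsf9b and 0.774 for Cit. Cit, the citron kinase, had 885 CPM (248 UMIs) in the doxorubicin library, against 1143 CPM (246 UMIs) in the control library, and Magi2, a scaffold of synapses, had 253 CPM (71 UMIs) in the doxorubicin library, against 395 CPM (85 UMIs) in the control library. In CGE interneurons the ratios of Cit, Ptprd, Rbm28 and Magi2 were 1.01, 1.01, 1.01 and 1.02, and those of Arpp21, Klhl24 and Igsf9b, at 0.612, 0.663 and 0.674, were below 1 as in MGE interneurons. In glutamatergic neurons the ratios of these 7 genes lay between 0.839 and 0.968. The direction of Arpp21, Cit, Igsf9b and Ptprd turned under at least 1 other way of choosing or thinning the nuclei (log2 ratios of 0.063, 0.12, 0.22 and 0.018).

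**Figure D4:**
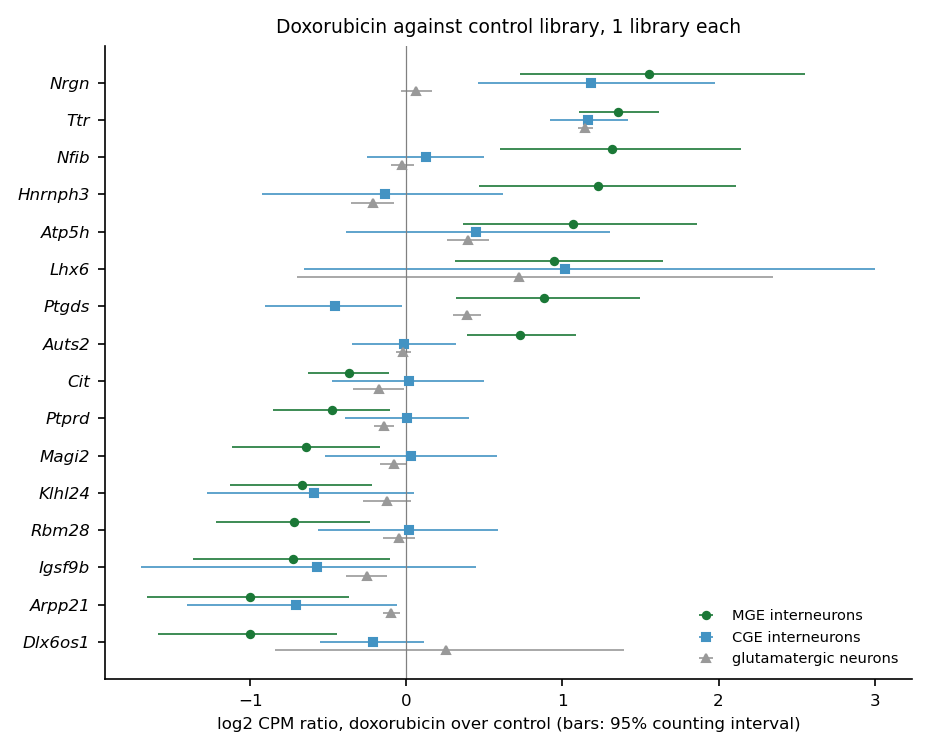
CPM ratio of the doxorubicin library over the control library (log2, x axis) for the genes named (rows), in MGE interneurons (green circles), CGE interneurons (blue squares) and glutamatergic neurons (grey triangles); lines are 95% counting intervals, with 1 library per treatment. Ttr is shifted alike in the 3 classes. The genes were chosen by their MGE intervals, so those of Auts2 and Nfib lie right of 0 in MGE interneurons by choice. In CGE interneurons and glutamatergic neurons their intervals span 0.

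Nuclear genes of oxidative phosphorylation leaned upward. Of 62 with at least 10 UMIs over both libraries 43 had a ratio above 1, beside 3898 of all 7585 such genes. Of the 62, 19 were past 1.5 and 4 below its inverse, where 16.7% and 15.4% of the 7585 genes were past those bounds. The list's median log2 ratio was 0.37 in MGE interneurons, 0.40 in CGE interneurons and 0.28 in glutamatergic neurons. Over all genes the median was 0.01, -0.0004 and -0.05 in these classes. Uqcrh, a subunit of complex III, had 92.7 CPM (26 UMIs) in the doxorubicin library, against 32.5 CPM (7 UMIs) in the control library, and Ndufb4, of complex I, had 57.1 CPM (16 UMIs) in the doxorubicin library, against 18.6 CPM (4 UMIs) in the control library. Cycs, cytochrome c, went the opposite way with 46.4 CPM (13 UMIs) in the doxorubicin library, against 92.9 CPM (20 UMIs) in the control library, and its counting interval held 1. The mitochondrially encoded genes had a median of -0.52 over 7 genes in MGE interneurons, 0.97 over 6 in CGE interneurons and 0.14 over 13 in glutamatergic neurons. Antioxidant genes had a median of 0.29 over 11 genes in MGE interneurons, -0.16 over 11 in CGE interneurons and 0.18 over 18 in glutamatergic neurons. In MGE interneurons they were led, among those with at least 20 UMIs, by the metallothionein Mt1. It had 121 CPM (34 UMIs) in the doxorubicin library, against 51.1 CPM (11 UMIs) in the control library.

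The genes of the MGE subtypes were described in the same way. Fast-spiking genes had a median log2 ratio of 0.11 over 17 measured, and Sst subtype genes -0.34 over 12. In CGE interneurons these medians were -0.27 over 11 and -0.21 over 10. In glutamatergic neurons they were -0.11 over 19 and -0.06 over 17. Crhbp had 103 CPM (29 UMIs) in the doxorubicin library, against 97.6 CPM (21 UMIs) in the control library, a ratio of 1.05 whose counting interval held 1. Grin3a had 78.5 CPM (22 UMIs) in the doxorubicin library, against 130.1 CPM (28 UMIs) in the control library, a ratio of 0.606 (95% counting interval 0.329 to 1.09). The targets of p53, which DNA damage induces, had a median of -0.38 over 7 measured. It was -0.32 over 5 in CGE interneurons and -0.18 over 16 in glutamatergic neurons. Mdm2, the ubiquitin ligase of p53, had 39.2 CPM (11 UMIs) in the doxorubicin library, against 60.4 CPM (13 UMIs) in the control library. Genes of topoisomerases and DNA repair had a median of 0.05 over 13, beside -0.18 over 14 in CGE interneurons and -0.05 over 20 in glutamatergic neurons. Hdac6 had 78.5 CPM (22 UMIs) in the doxorubicin library, against 139 CPM (30 UMIs) in the control library, a ratio of 0.566 (95% counting interval 0.309 to 1.01).

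Doxorubicin + ACY-1083 against doxorubicin put 4230 of 6356 genes (66.6%) past a ratio of 1.5 in MGE interneurons, 2330 higher (36.7%) and 1900 lower (29.9%). With TMM scaling, which moved every log2 ratio by 0.50, the split was 3124 higher and 986 lower. The ratios followed intron length in each class. Spearman's rho across genes, which are not independent replicates, was 0.645 in MGE interneurons (7075 genes), 0.640 in CGE interneurons (6667 genes) and 0.631 in glutamatergic neurons (14857 genes). In 5 equal groups of the 7075 genes, ordered by intron length with the shortest first, the median log2 ratio was -1.23, -0.55, -0.12, 0.37 and 1.48. Doxorubicin against control gave a rho of -0.072 in MGE interneurons, over 1682 genes. The doxorubicin + ACY-1083 file was written by another software version than the others, so treatment, library and counting cannot be told apart in any level of this library set against the others. Genes are described next by how their ratio differed from that in glutamatergic neurons.

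**Figure D5:**
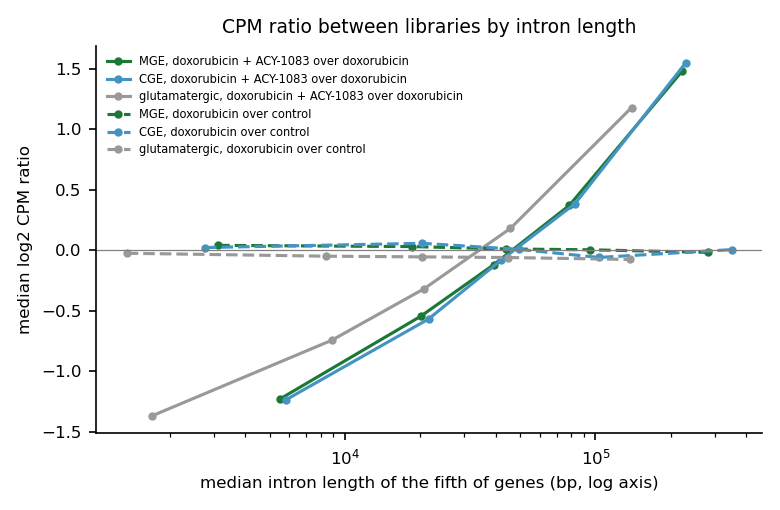
Median log2 CPM ratio between libraries (y axis) for 5 equal groups of genes by summed intron length (median of the group in bp, log x axis), in MGE (green), CGE (blue) and glutamatergic (grey) nuclei. Solid lines are doxorubicin + ACY-1083 over doxorubicin and climb in each class, in MGE interneurons between -1.23 and 1.48; dashed lines are doxorubicin over control and stay near 0.

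Relative to glutamatergic neurons, of 675 genes with at least 50 UMIs in both libraries and classes, Sox2ot, a noncoding RNA that spans Sox2, was most shifted upward in MGE interneurons. It had 782 CPM in the doxorubicin + ACY-1083 library, against 193 CPM in the doxorubicin library, a ratio of 4.02, beside 1.61 in glutamatergic neurons and 3.92 in CGE interneurons. Oxr1, an oxidation resistance gene, had 1486 CPM in the doxorubicin + ACY-1083 library, against 182 CPM in the doxorubicin library, a ratio of 8.09 beside 4.38 in glutamatergic neurons and 4.03 in CGE interneurons. Erc2, a protein of the presynaptic active zone, Syt7, a synaptotagmin, and Magi2 followed, with differences of log2 ratio of 0.69, 0.66 and 0.58. The ratio of Erc2 was 5.25 in MGE and 5.61 in CGE interneurons, that of Syt7 0.689 and 0.551, and that of Magi2 11.2 and 6.80. Downward, the receptor phosphatase Ptprd had 885 CPM in the doxorubicin + ACY-1083 library, against 421 CPM in the doxorubicin library, a ratio of 2.09 beside 5.45 in glutamatergic neurons and 3.52 in CGE interneurons. Nav3, a protein of microtubule ends, had 1152 CPM in the doxorubicin + ACY-1083 library, against 531 CPM in the doxorubicin library, a ratio of 2.16 beside 5.31 in glutamatergic neurons and 1.94 in CGE interneurons. Nfib, Phactr3 and Phactr1 were also lower relative to glutamatergic neurons, by log2 differences of -1.03, -0.93 and -0.83, and their ratios were 0.628, 0.977 and 2.998 in MGE against 1.01, 1.42 and 4.42 in CGE interneurons. Nfib had 149 CPM in the doxorubicin + ACY-1083 library, against 235 CPM in the doxorubicin library, with 92.9 CPM in the control library. The doxorubicin value enters both this ratio and the one over control by which Nfib was named above, so these ratios are not independent. The same holds for Magi2 and Ptprd.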

How the data were processed

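Both hippocampi of 4 mice per treatment were pooled before nuclei were isolated with Triton X-100 and sequenced with 10x 3' version 3 chemistry, per the labels' protocols. The deposited values are UMI counts without any normalization, for 32285 genes in each barcode. Per the file headers Cell Ranger 5.0.0 wrote the doxorubicin + ACY-1083 matrix and Cell Ranger 4.0.0 the doxorubicin and control matrices, while version 6.0.0 and mm10 stand in the submitters' processing notes of each library; the sources used here do not say whether intronic reads were included. Library totals were 62151258, 21458785 and 19175447 UMIs (doxorubicin + ACY-1083, doxorubicin, control), and their number limits the precision of every value. No column was left without a sample.

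The members, the gene lists and the tests were chosen with earlier results of these data known. UMIs of a class were added up within each library and scaled by their total to CPM, the usual scaled count. Classes were compared with edgeR 4.0.16 (quasi-likelihood test, TMM scaling, filterByExpr, library as a block, Benjamini-Hochberg adjustment over all genes tested, threshold 0.05), and with DESeq2 1.42.0 as an alternative; the edgeR step was tested on simulated counts. Treatments were compared by CPM ratios with 0.5 counts added and exact conditional Clopper-Pearson intervals at 95%. Scrublet's automatic threshold (scanpy 1.11.5) marked 1, 1 and 3 barcodes and was judged not to have worked, so doublets were kept, and an alternative left out the highest 5% of scores with nuclei under 300 genes or over 5% mitochondrial UMIs. Intron lengths came from GENCODE vM21 (GRCm38), which matched 99.8% of gene IDs.

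Genes named for a comparison of classes passed the threshold with a log2 fold of at least 1 in size, kept their direction in 3 libraries and had at least 50 CPM in the higher class, and were the most extreme by log2 fold. Genes named between treatments were the most extreme by the interval bound nearest a ratio of 1 (doxorubicin against control) or by the difference from glutamatergic neurons less its counting error. Of the 36 lists, members with the most extreme values were named; other genes named in the text were chosen after their values were seen. Some genes are not reported here.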

Additional observations from a re-analysis of the deposited data

How the results depend on the processing

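Counts of called genes moved with several choices, and so did the number of genes tested. MGE against CGE interneurons gave 870 of 5983 genes, and 184 of 5983 with DESeq2. A minimum of 3 UMIs in the rule gave 431 of 2610. Without the library block 0 of 4712 passed (131 at an unadjusted edgeR p under 0.05). Leaving out 1 library gave 303 of 4384 to 1125 of 10874. MGE interneurons against glutamatergic neurons gave 4468 of 15219, and 1809 of 15219 with DESeq2. They gave 146 of 13724 without the block and 2546 of 14510 with MGE nuclei that held Lhx6. Leaving out 1 library gave 1804 of 13342 to 4199 of 14570. Sst against Pvalb nuclei gave 180 of 1209, 34 of 1209 with DESeq2 and 302 of 17653 with no filter. Without the block 0 of 703 passed (26 at an unadjusted edgeR p under 0.05). Stricter sets gave 99 of 577, and leaving out 1 library gave 33 of 556 to 343 of 4483. No paired analysis by replicate number was possible because each treatment has 1 library; the block is the library that both classes share. The genes past a ratio of 1.5 were 51 of 721 for doxorubicin against control. They were 7 of 211 at a minimum of 100 UMIs and 14 of 129 at 3 UMIs in the rule. When thinned they were 1 of 7, and with Lhx6 22 of 206. For doxorubicin + ACY-1083 against doxorubicin they were 4230 of 6356, with 2488 of 3716 at 100 UMIs. There they were 4 of 7 when thinned and 2440 of 3627 with Lhx6. The thinned values rest on 5, 16 and 3 MGE nuclei (doxorubicin + ACY-1083, doxorubicin, control). Log2 ratios that turned direction for doxorubicin against control were Arpp21 (0.063 at 3 UMIs, 0.094 with Lhx6), Cit (2.11 thinned, 0.12 with Lhx6), Igsf9b (0.22 at 3 UMIs) and Ptprd (0.018 thinned). For doxorubicin + ACY-1083 against doxorubicin they were Ptprd (-0.27 thinned) and Phactr3 (0.46 with TMM, 0.40 at 3 UMIs, 0.30 with Lhx6). MGE shares of barcodes in the doxorubicin + ACY-1083, doxorubicin and control libraries were 1.25%, 0.270% and 0.128% at 3 UMIs, 0.0450%, 0.180% and 0.0377% thinned, and 0.894%, 0.385% and 0.193% with Lhx6. MGE shares of MGE plus CGE nuclei were 11.9%, 47.1% and 9.68% thinned, and 25.9% in the control library at 3 UMIs. The cause was not tested. The lower depth of the doxorubicin and control libraries limits the genes that could be compared there. The Lhx6 alternative was chosen after seeing the data.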
